A study of Rattus norvegicus with 9 samples.

Results

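The comparison of a whey protein hydrolysate (WPH) diet with a casein (CAS) diet in rat proximal colon rested on 6 arrays, 3 labelled as whey and 3 as casein, of the 9 in the series. Transcripts were chosen by a minimum signal. Of 8740 probe sets other than Affymetrix controls, the 5525 whose mean signal reached 100 in CAS or in WPH were compared, and 3215 lay under that limit in both diets. The limit left 192 probe sets just outside it, with a mean of 90 to 100 in the brighter diet, and 171 just inside it, at 100 to 110.

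Both groups were male Sprague-Dawley rats fed 1 purified diet all their lives, and the diets differed in protein source alone. All of them, controls included, had received the colon carcinogen azoxymethane (AOM) at 15 mg/kg, injected once a week for 2 weeks from 90 days of age. The tissue was tumor-free proximal colon taken 40 weeks later, and no rat without AOM entered the comparison. For each diet, RNA of 7 rats was combined in equal amounts into 1 pool, and 3 labelled cRNA targets were made from 8 µg of it, each read on 1 array. The spread between arrays of a diet is therefore technical, and every p-value below compares 1 pool with another and not diets across rats. Soy protein isolate (SPI), the third diet of the series, also had 3 arrays from a pool of 7 rats. Its arrays were used to estimate the technical spread and are cited in a few places as a further level.

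The proximal colon wall is built of layers. A sheet of epithelium, made of absorptive colonocytes, mucus-making goblet cells and scattered hormone-secreting cells, faces the lumen and exchanges salt, water and short-chain fatty acids. Under it lie connective tissue and immune cells, then smooth muscle in which the ganglia of the enteric nervous system are embedded. Whole tissue RNA mixes all of these, so that for every transcript below a lower share of one cell type in the sample and less of the RNA per cell cannot be told apart.

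MAS 5.0 signals, scaled by the authors to an average of 500 on each array, ranged in trimmed mean only from 500.66 to 500.78, and 58.6 to 60.2% of probe sets reached 100 on the 6 arrays. Control measures of RNA quality moved with diet. For β-actin, the ratio of the signal at the 3' end of the transcript to that at its 5' end was 1.83, 1.86 and 1.88 on the CAS arrays and 3.50, 2.53 and 2.92 on the WPH arrays, without overlap. For glyceraldehyde-3-phosphate dehydrogenase the ratios were 1.63, 1.34 and 1.71 with CAS and 1.57, 1.70 and 1.64 with WPH, and these overlapped. The dim control hexokinase gave 3.21, 2.80 and 3.73 with CAS and 15.7, 6.30 and 4.86 with WPH, without overlap. The part of these differences in the results below was not tested. Time of processing was a second measure that moved with diet. The settings files of the instrument give a time under the label Hybridize Date. Arrays were split into rounds at gaps of over 30 minutes, called wash rounds here. The 3 CAS arrays and WPH replicate 2 fell in 1 round and WPH replicates 1 and 3 in the next. Values within the first round, WPH replicate 2 against the CAS arrays, are given where they bear on a result.

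A transcript was called when its limma p, adjusted by Benjamini-Hochberg over the 5525 probe sets, was under 0.05, together with a ratio of mean signals of at least 2, after each signal under 100 had been raised to 100. By this rule 236 probe sets (4.27%) were higher with WPH than with CAS and 396 (7.17%) were lower. Taking the brightest probe set of each of 3352 genes with a symbol, 161 genes (4.8%) were higher and 248 (7.4%) were lower, and the median log2 change of all these genes was 0.07. By adjusted p alone, without the fold, the balance was the other way, with 723 genes higher and 615 lower. Of the called genes, 76 higher and 104 lower ones belonged to the gene lists used here, which cover 636 tested genes, and 85 higher and 144 lower ones to no list. The lists were chosen with earlier results of these data known. Their shares beside those of all genes are therefore a description and not independent support. Where 1 gene had several probe sets, 98 pairs of probe sets were called in the same direction, 160 in only 1 of the pair, and 0 in opposite directions, among 1528 pairs of 937 genes. Beside a called probe set, at least 1 other of the same gene was not called for Muc2, Scg5, Ret, Myh11, Dcn, Fn1, Slc18a3, Efemp1, Agtr1a, Npr1, Vcam1, Cd14, Cx3cl1, Pygm, Ttr, Cyp51, Cds1, Gclm, Gsr, Hk2, Fbp2, Pfkm, Ldhb, Top2a, Prlr, Junb, Hspa4 and Hspb6, so that values given for these genes are those of the brightest probe set. For Fut1, Snap25, Vamp1, Tac1, Tpm1, Fos and P4hb the brightest probe set, whose values are given, was not called and a dimmer one was, and for Fut1 both others were called lower. Within the first wash round, which holds 1 WPH array and the same 3 CAS arrays, all 236 and 396 probe sets kept their direction. These arrays also made the calls, so the kept direction is no separate check. In what follows a fold is the ratio of the mean signals, and it is given as a lower bound ("at least") where the dimmer diet was under 100 on each of its 3 arrays, with those signals raised to 100. Where only 1 or 2 of its arrays were under 100, the log2 ratio of the mean signals with those signals raised to 100 (floored log2 ratio) takes the place of the fold. A log2 change of a gene is that of the limma fit, with its standard error (SE). The median log2 change of a list is taken over floored log2 ratios, and over limma log2 changes where another scaling or wash round is named.

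Transcripts of the absorptive epithelium were lower with WPH, often several-fold. Of 34 measured surface colonocyte markers, 27 fell and 0 rose, against a background of 7.4% of all genes lower. Their median log2 change was -1.72 against 0.07 over all genes tested. Epcam, an adhesion molecule found on all colon epithelial cells, had signals of 4328, 4002 and 4042.5 with CAS and 443, 412.5 and 466 with WPH. Every WPH array lay far under every CAS array, a 9.37-fold difference (log2 change -3.23, SE 0.09, adjusted p = 2.83e-09). The summed signal of the 34 markers was 127659 to 131789 with CAS, 42321 to 43655 with WPH and, for reference, 87725 to 91420 with SPI, 3.00-fold lower with WPH than with CAS. The defining epithelial markers measured here, Epcam, Krt8, Krt18 and Cdh17, all stayed well above 100 with WPH, the lowest mean being 357 for Krt18.

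The decrease was not of 1 size. Keratins, which form the intermediate filaments of epithelial cells, included Krt20 of differentiated surface cells, at 3062, 2994.5 and 3056 with CAS and 627, 669 and 543 with WPH, a 4.96-fold difference (adjusted p = 4.32e-08). Krt18 was 5.58-fold lower, whereas Krt8 and Krt19 were 2.71-fold and 2.78-fold lower (adjusted p = 2.26e-08, 1.33e-07 and 1.42e-07). The second probe sets of Krt18 and Krt19 were called lower as well. Myo1a, the myosin of the brush border, fell from 320, 282 and 369 to 19.5, 23.1 and 16.4, at least 3.24-fold. The brush border peptidase subunits Mep1a and Mep1b fell from means of 4703 and 1162 with CAS to 1231 and 232.5 with WPH. Among transcription factors of intestinal identity, Cdx1 was at least 3.03-fold lower and Hnf4a at least 2.03-fold lower, both under 100 on every WPH array. Klf4, a factor of differentiating surface cells, was 3.16-fold lower, with CAS arrays spread from 3421 to 6690 and WPH arrays from 1439 to 1621.

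Other markers of the same list fell short of 2-fold or went the other way. Car2, a carbonic anhydrase, had means of 6542 with CAS and 3418 with WPH, Lgals4, a lectin of enterocytes, 10676 and 7384, and Tff3, the trefoil peptide of goblet cells, 2244 and 1167, all with an adjusted p under 0.05. The alkaline phosphatase Alpl was at 1389 with CAS and 2315 with WPH (adjusted p = 0.00186), and the aminopeptidase Anpep at 317 and 351, with overlapping arrays. Within the first wash round the count was again 27 lower and 0 higher of 34.

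**Figure D1:**
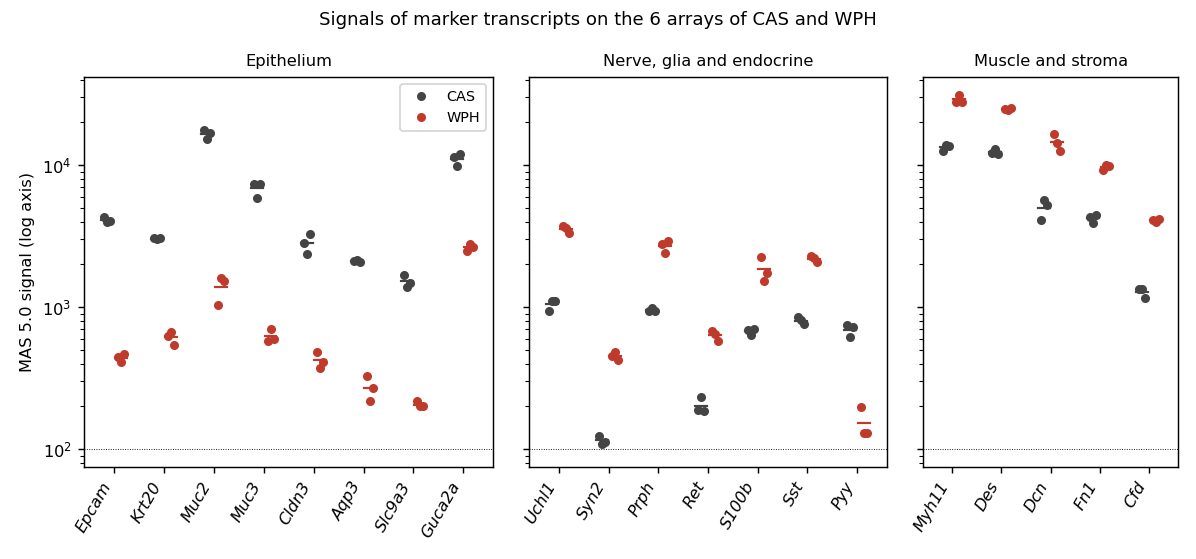
MAS 5.0 signals (log axis) of 20 marker transcripts on the 3 CAS (grey) and 3 WPH (red) arrays, 1 point per array, with bars at the means and a dotted line at 100. The 8 epithelial transcripts and Pyy lie lower on every WPH array, and the other 11 transcripts, of neurons, glia, somatostatin cells, muscle and stroma, lie higher on every WPH array.

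Mucus genes gave some of the largest decreases of the comparison. Of 11 mucus and goblet cell genes measured, 6 fell (54.5%, against 7.4% of all genes) and 0 rose, with a median log2 change of -1.22. Muc2, the gel-forming mucin of goblet cells, was read by a bright probe set at 17569, 15382 and 16884.5 with CAS and 1038, 1599 and 1525 with WPH. The arrays did not overlap, and the means were 16612 and 1387 (log2 change -3.61, SE 0.17, adjusted p = 5.55e-08). A dim second probe set of Muc2 gave 237 ± 33.2 with CAS and 277 ± 17.9 with WPH (SD, n = 3 arrays each) and was not called (limma adjusted p = 0.37), so that the decrease rests on the bright one. Muc3, a mucin anchored in the brush border, fell 11.1-fold, from 7402, 5879 and 7422 to 574.5, 698.5 and 596.5, and its other 2 probe sets were called lower too. Muc13, also membrane-bound, fell 5.22-fold, Zg16, a lectin of the mucus layer, 4.43-fold, and Muc4 2.34-fold. Fut2, the fucosyltransferase that decorates secreted mucins, was at least 4.77-fold lower. Muc1 was at 278 with CAS and 189 with WPH (adjusted p = 0.0387). Galnt1, a transferase that starts O-glycans, was not called. Fut1, a fucosyltransferase, was not called on its brightest probe set, while both others were called lower.

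Of 26 genes of salt and water transport measured, 14 fell and 1 rose (53.85% and 3.85%, against 7.4% and 4.8% of all genes). The median log2 change was -1.12, and -1.62 by limma without the floor. Slc9a3, the sodium-hydrogen exchanger of the apical membrane, had signals of 1673, 1392.5 and 1481 with CAS and 217, 201 and 200 with WPH, 7.36-fold lower. Atp12a, the colonic proton-potassium pump, fell at least 10.2-fold, from 1078, 990 and 992 to 52.7, 75.6 and 92.3 (adjusted p = 6.00e-08). The basolateral transporters Slc12a2, which brings in chloride, and Atp1b1, a subunit of the sodium pump, fell 2.34-fold and 2.01-fold. The potassium channel Kcnk1 was at 542 with CAS and 112 with WPH, 4.84-fold lower.

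Scnn1a, a subunit of the epithelial sodium channel, was 3.15-fold lower, Sgk1, the kinase that keeps this channel at the membrane, 3.93-fold, and Hsd11b2, which shields the mineralocorticoid receptor from glucocorticoids, 3.00-fold (adjusted p = 1.13e-06, 9.83e-07 and 9.92e-07). The mineralocorticoid receptor itself, Nr3c2, was at 371 with CAS and 224 with WPH and was not called (adjusted p = 0.0255, under 2-fold). Guca2a and Guca2b, gut peptides that drive fluid secretion, fell 4.18-fold and by a floored log2 ratio of -1.41, and their receptor Gucy2c 4.58-fold. The call of Guca2b was lost with wash round in the model (limma adjusted p = 0.111). Guca2a was one of the brightest epithelial transcripts, at 11375, 9793 and 11997 with CAS and 2472, 2794 and 2669 with WPH.

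Aquaporins moved in both directions. Aqp3, a water and glycerol channel of the basolateral colonocyte membrane, was 7.83-fold lower (2116, 2150 and 2095 against 324.5, 217.5 and 270), and Aqp8, an apical channel, at least 2.43-fold lower. Aqp1, the water channel of endothelium, was 3.40-fold higher, at 464, 384 and 335.5 with CAS and 1137.5, 1375 and 1515.5 with WPH. Cftr, the chloride channel, was at 171 with CAS and 144 with WPH and did not pass the test (adjusted p = 0.387).

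Cell junction genes fell in 10 of 15 measured members (66.7%, against 7.4% of all genes) and rose in 0 (median log2 change -1.74). Claudins and occludin seal tight junctions. Cldn3 had signals of 2811, 2382 and 3248.5 with CAS and 483, 372 and 409 with WPH, 6.68-fold lower, and Cldn7 fell 5.17-fold. Ocln fell 4.32-fold, with 1 CAS array at 918 and the others at 503 and 425, and 115 to 169 with WPH, and both other probe sets of Ocln were called lower. Cdh17, the cadherin of intestinal epithelium, was 3.36-fold lower and Sdc1, a heparan sulfate proteoglycan of epithelia, 3.30-fold. Embigin (Emb), an adhesion glycoprotein of the same list, was 6.57-fold lower, at 2344.5, 2189 and 2188 against 310, 321 and 391. Other junction genes were not called. The scaffold Tjp1 was at 1299 with CAS and 1650 with WPH (adjusted p = 0.1), the plaque protein Jup at 950 and 898 (adjusted p = 0.737), and the tetraspanin Cd9 at 2418 and 4054 (adjusted p = 0.000468, under 2-fold). The connexin Gjb2 was at 162 with CAS and under 100 on every WPH array.

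Hormones and secretory proteins of endocrine cells moved in both directions. Of 14 measured, 5 rose and 2 fell, against 4.8% and 7.4% of all genes. Pyy, the peptide YY of colonic L cells, fell 4.56-fold, from 744, 611 and 727 to 197, 130 and 130. Chgb, chromogranin B, fell 2.56-fold. Gcg, which encodes the glucagon-like peptides of the same cells, was at 156 with CAS and 20.2 with WPH, too dim for the fold rule, and Cck and Sct, encoding cholecystokinin and secretin, averaged 183 and 166 with CAS and 45.6 and 62 with WPH. All 5 of these genes had lower means with WPH.

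Somatostatin (Sst), made by both endocrine cells and enteric neurons, went the other way, at 850, 805 and 755 with CAS and 2285, 2220 and 2063 with WPH. It was 2.72-fold higher (adjusted p = 6.49e-07), and a second probe set gave 3.87-fold. The 4 other genes that rose, Scg2, Scg3, Scg5 and Resp18, encode granule proteins shared by neurons and endocrine cells. They were 2.84-fold, 2.77-fold, 3.70-fold and 2.23-fold higher. Scg5 rested on its brighter probe set, as the other was at 198 with CAS and 267 with WPH and was not called (limma adjusted p = 0.0997).

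Genes of enteric neurons were higher with WPH. Of 42 measured, 25 rose (59.5%, against 4.8% of all genes) and 0 fell, and 41 of 42 had a log2 change above 0. The median log2 change was 1.09. The summed signal was 23339 to 24218 with CAS, 54031 to 56640 with WPH and 34275 to 36292 with SPI, 2.33-fold higher with WPH than with CAS. Within the first wash round, with 1 WPH array, the limma median log2 change was 1.07, and 40 of 42 were above 0. A further 7 genes of this list on the array, among them Chat, Nos1 and Dbh, stayed under the minimum in both diets.

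Uchl1, the abundant hydrolase known as PGP9.5 that marks all neurons, had signals of 944, 1110 and 1109 with CAS and 3736, 3622 and 3302 with WPH, 3.37-fold higher (log2 change 1.76, SE 0.13, adjusted p = 1.62e-06). Neuronal intermediate filaments rose together, Nefm 2.97-fold, Prph 2.82-fold, Nefl 2.41-fold and Ina 2.29-fold. Prph, peripherin, was at 942, 986 and 938.5 with CAS and 2788, 2403 and 2898 with WPH. The CAS and WPH arrays did not overlap for any of the 4 filaments.

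Synaptic vesicle genes were less even. Syn2, synapsin II, was 3.94-fold higher, at 124, 109 and 112 with CAS and 451, 483 and 426 with WPH, whereas Sv2a had a floored log2 ratio of 1.03, and Syp, Snap25, Syn1 and Stx1a stayed under 2-fold with an adjusted p under 0.05. Vamp1 and Vamp2 did not pass the test (adjusted p = 0.113 and 0.27). For Snap25 and Vamp1 this holds for the brightest probe set, and a dimmer one was called. Rgs9, a regulator that ends G protein signals, went from 130, 50.4 and 86.0 to 464, 501 and 525, a floored log2 ratio of 2.18 and the largest of the list. Other genes that rose were Thy1, a neuronal surface protein, 3.19-fold, Fez1 of axonal transport 3.14-fold, Pcp4, a calmodulin-binding protein, 3.06-fold, and Cacna2d1, a calcium channel subunit, 2.84-fold. Ret, the receptor for glial cell line-derived neurotrophic factor on which enteric neurons depend, was 3.14-fold higher on its brightest probe set, at 188, 231 and 184 against 675, 647 and 574, while its other 2 probe sets were not called.

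Penk, encoding enkephalin of excitatory motor neurons, rose 2.21-fold, Npy, encoding neuropeptide Y, 2.24-fold, Cartpt 2.16-fold and Nmu, encoding neuromedin U, 2.13-fold. Slc18a3, the vesicular carrier of acetylcholine, was at 474, 496 and 430 with CAS and 916, 918 and 1116 with WPH, 2.11-fold higher, and Calb2, calretinin, a calcium-binding protein of sensory and motor neurons, was 2.52-fold higher. Vip, the peptide of inhibitory motor neurons, stood at 120 with CAS and 211 with WPH (adjusted p = 0.00403, under 2-fold), and Gal, galanin, at 526 and 668 (adjusted p = 0.0884). Tac1, encoding substance P, was at 1051 and 1516 on its brightest probe set (adjusted p = 0.129), while a dimmer one was called. Th, the first enzyme of catecholamine synthesis, was the sole member with a lower mean with WPH, at 292 and 235 (adjusted p = 0.254).

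Glial genes did not move as one. Of 13 measured, 2 rose (15.4%, against 4.8% of all genes) and 0 fell. S100b, the calcium-binding protein of enteric glia, was at 692, 638 and 704 with CAS and 2262, 1518 and 1742 with WPH, 2.71-fold higher. Sparcl1, a matrix protein of glia and vessels, was 2.24-fold higher. Sox10, the glial transcription factor, was under 100 with CAS and at a mean of 189 with WPH, under the 2-fold limit with its floor. Pmp22, a myelin protein that epithelia also make, was at 4424 with CAS and 2405 with WPH (adjusted p = 9.78e-06, under 2-fold), and Mal, a protein of myelin and of apical membranes, at 230 and 126.

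**Figure D2:**
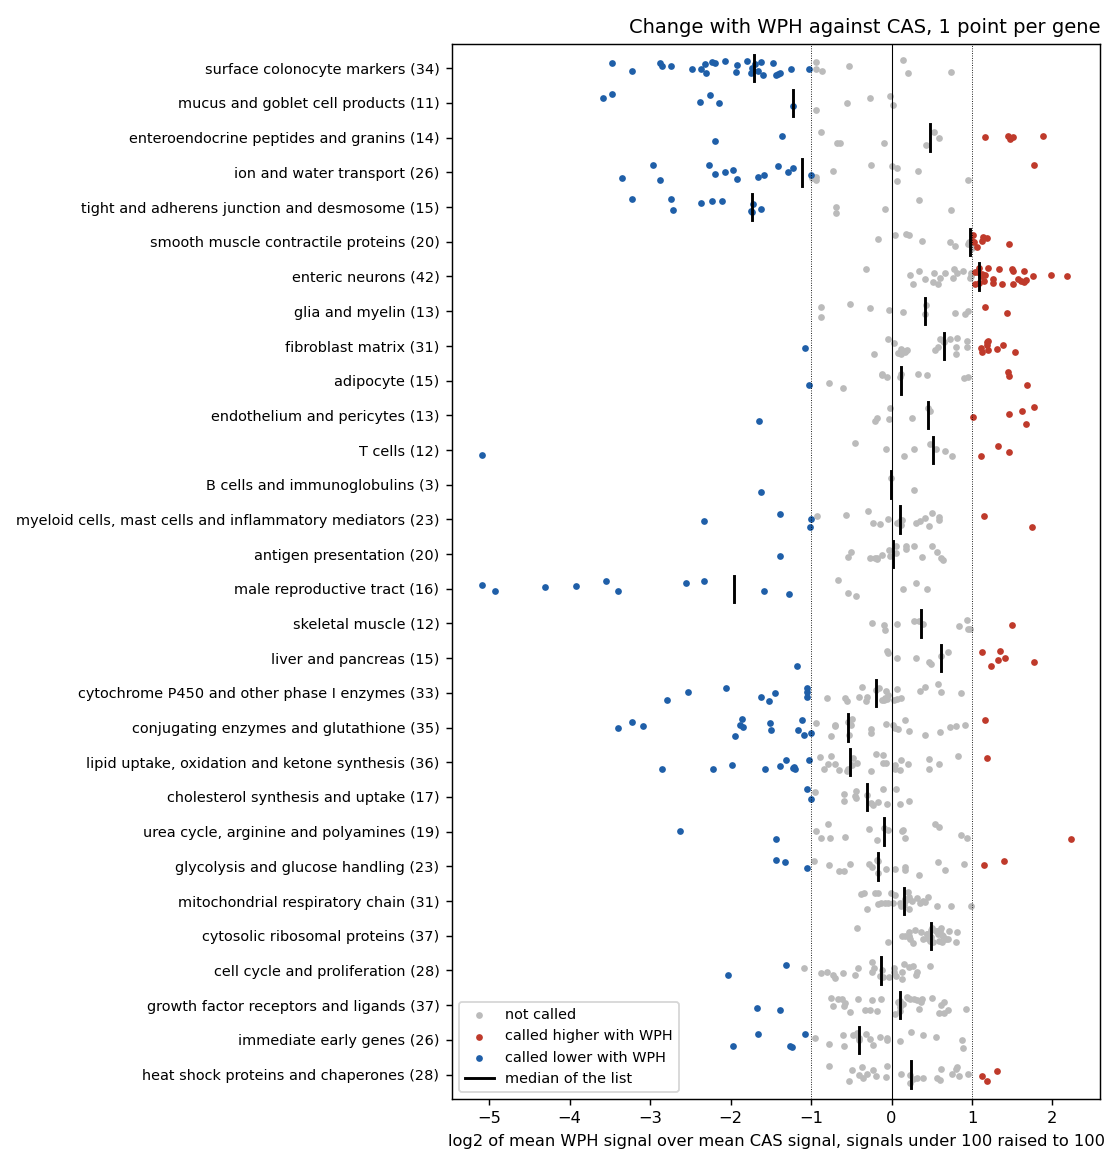
Log2 ratio of mean WPH to mean CAS signal, with signals under 100 raised to 100, for each measured gene of 30 lists (number in brackets), where vertical bars are list medians and dotted lines mark 2-fold. Lists of colonocyte, mucus, transport and junction genes and the male reproductive tract list lie to the left. Those of neurons and smooth muscle lie to the right with medians of 1.09 and 0.98. The list of endocrine peptides and granins has a median of 0.48, and respiratory chain genes lie near 0 with a median of 0.15.

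Contractile proteins of smooth muscle were higher with WPH. Of 20 genes of the smooth muscle list measured, 8 rose (40%, against 4.8% of all genes) and 0 fell. The median log2 change was 0.98. Myh11, the smooth muscle myosin heavy chain, was at 12649, 13769 and 13725 with CAS and 28052, 31276 and 28068 with WPH, 2.18-fold higher (adjusted p = 6.13e-07). Calponin (Cnn1) was 2.09-fold higher, the light chain Myl9 2.03-fold, desmin (Des) 2.02-fold and the enteric actin Actg2 2.01-fold. Just under the limit were Acta2, the vascular and enteric actin, 1.99-fold, Tagln, or SM22, and the tropomyosins Tpm1 and Tpm2 at 1.97-fold and 1.94-fold. These were the 9 brightest of the 20 with CAS, and their ratios of WPH to CAS spanned 1.94 to 2.18, while over the whole list they ran from 0.889 for Cav1 to 2.74 for Pdlim3.

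The size of these changes depended on the scaling. After quantile normalization, which gives all arrays 1 distribution, the median log2 change of the smooth muscle list was 0.39 and 3 of 20 were called higher, with Myh11 at 0.39, while 19 of 20 stayed above 0. With each array centred on its median the list's median was 1.02 with 12 called higher. Within the first wash round, with 1 WPH array, the list's median was 1.03 over the 19 genes that passed the signal minimum. Dimmer muscle genes that rose under the authors' scaling were Pdlim3, a protein of the actin-anchoring dense bodies and Z-discs, 2.74-fold (2726, 2569 and 2433 against 7974, 6819 and 6419), Pln, phospholamban, 2.27-fold and Speg, a muscle kinase, 2.21-fold. Receptor genes were not called. The muscarinic receptors Chrm2 and Chrm3 were at 97.2 and 327 with CAS and 115 and 337 with WPH, and Cav1, caveolin, at 690 and 614, with none passing the test.

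**Figure D3:**
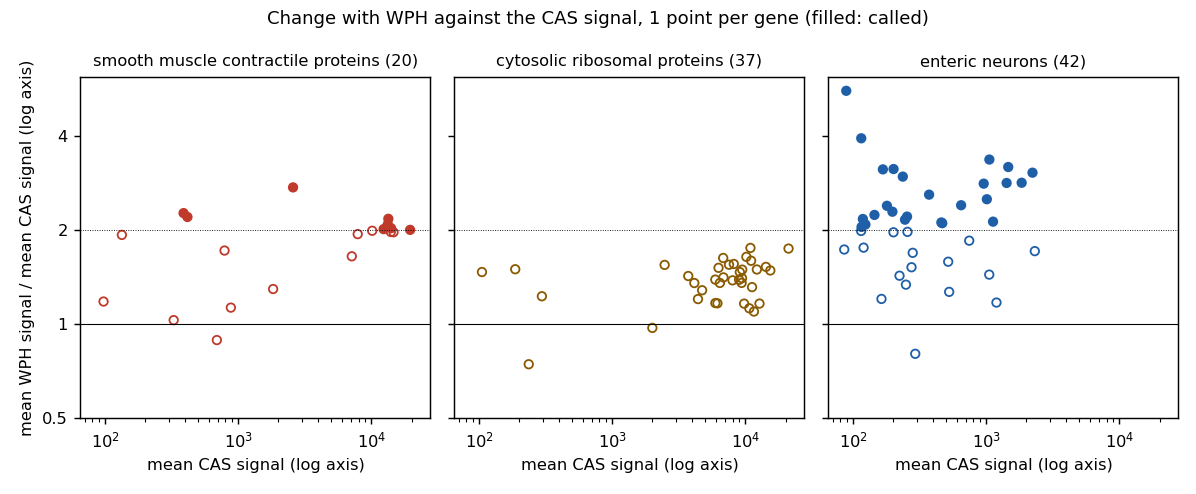
Ratio of mean WPH to mean CAS signal against mean CAS signal (both log axes) for each measured gene of 3 lists, filled where called higher, with a dotted line at 2-fold. The brightest smooth muscle transcripts sit on the 2-fold line, 35 of 37 ribosomal protein transcripts lie between 1 and 2, and the neuronal transcripts, most of them dim, spread up to 5.60-fold as measured (Rgs9).

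Connective tissue genes rose in part. Of 31 fibroblast matrix genes measured, 9 rose and 1 fell (29.0% and 3.23%, against 4.8% and 7.4% of all genes). The median log2 change was 0.65, and 0.80 by limma without the floor. Decorin (Dcn), a small proteoglycan that binds collagen fibrils, was at 4106.5, 5667.5 and 5234 with CAS and 16582, 14318 and 12658 with WPH, 2.90-fold higher. Postn, periostin, rose 2.62-fold and Serpinh1, the chaperone of collagen, 2.48-fold. Fibronectin (Fn1) rose 2.30-fold on its bright probe set, at 4332, 3903 and 4436 against 9313, 10041 and 9803, while a pair of dim probe sets of Fn1 gave nearly equal means. Vim, the filament of mesenchymal cells, was 2.18-fold higher, and Mgp and Lum, matrix proteins of vessels and stroma, 2.28-fold each. The fibrillar collagens Col3a1, Col1a2 and Col1a1 were at 4629, 3361 and 6834 with WPH and 2413, 2039 and 4580 with CAS, under 2-fold with an adjusted p under 0.05. Sparc, Timp1, Bgn and Igf1 did not pass the test, at 8041 against 6901 for Sparc. Ccn1, an immediate early matrix protein, was the member that fell, at least 2.11-fold.

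Fat and vessel genes gave a few strong increases. Adipsin (Cfd), secreted by adipocytes, was at 1334, 1347 and 1150 with CAS and 4113, 3994 and 4187 with WPH, 3.21-fold higher, lipoprotein lipase (Lpl) was 2.72-fold higher and Fabp4, the fatty acid carrier of adipocytes, 2.74-fold. The other adipocyte genes did not all follow. Lep, Scd and Fasn were at 1892, 2119 and 669 with CAS and 1824, 2289 and 616 with WPH, and Pparg, which colonocytes also express, fell 2.03-fold, a call that was lost with wash round in the model (limma adjusted p = 0.0787), without CAS replicate 3 (log2 change -0.99) and without WPH replicate 1 (log2 change -0.84). In all, 3 of 15 rose and 1 fell (20% and 6.67%, against 4.8% and 7.4% of all genes).

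Among 13 endothelial and pericyte genes, 5 rose and 1 fell (38.5% and 7.69%, against 4.8% and 7.4% of all genes). The share lower was near that of all genes. Npr1, a receptor for natriuretic peptides, was 3.18-fold higher, at 353, 346.5 and 328 against 970, 1203 and 1099, the angiotensin receptor Agtr1a 2.75-fold and the adhesion molecule Vcam1 2.02-fold. Egfl7, of growing vessels, was at 145, 81.6 and 40.8 with CAS and 221, 375 and 469 with WPH, a floored log2 ratio of 1.63 with wide spread (adjusted p = 0.00781). Ace, which makes angiotensin II and sits on both endothelium and brush border, fell 3.14-fold. Pecam1, Nos3 and Flt1, defining genes of endothelium, did not pass the test and had highest means of 182, 235 and 191.

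Immune transcripts showed no common direction. T-cell receptor subunits were dim and higher with WPH, Cd3d at 117, 142 and 111 with CAS and 300, 341 and 372 with WPH (2.75-fold) and Cd3g with a floored log2 ratio of 1.11. Cd8a, of cytotoxic T cells and of intraepithelial lymphocytes, was at 21.9, 23.0 and 21.9 with CAS and 325, 238 and 187 with WPH, at least 2.5-fold higher with no overlap (adjusted p = 3.21e-06). Cd4 was at 142 and 134 and the pan-leukocyte Ptprc at 329 and 365, neither past the test. The exception in that list, Cd52, is described with other tissues below. Of the B-cell and immunoglobulin list only Cd79b, Cd74 and Cd24 were matched by symbol, with Cd79b at 672 and 668 and Cd74 at 5706 and 6941. An immunoglobulin gamma heavy chain transcript that the paper lists as higher with WPH was not among them. Cd24, which epithelium also carries, fell 3.08-fold.

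Of 23 myeloid, mast cell and inflammatory genes, 2 rose and 4 fell (8.7% and 17.4%, against 4.8% and 7.4% of all genes). A further 16 on the array lay under the minimum in both diets, including Il6, Tnf, S100a8 and Csf1r. Ccl11, eotaxin, which draws eosinophils, was 3.35-fold higher (149, 243 and 228 against 879, 648 and 551) and Ptgs1, the constitutive cyclooxygenase, 2.22-fold. Cx3cl1, fractalkine, a chemokine on epithelium and endothelium, fell 5.04-fold, the protease Ctss 2.62-fold, the endotoxin receptor Cd14 2.02-fold and the mast cell protease Mcpt1 2.00-fold. After quantile normalization and after median centring 2 of the 4 lower calls were left, as Cd14 and Mcpt1 came just under 2-fold (log2 change -0.9996 and -0.9744 after quantile normalization). The inducible enzymes Ptgs2 and Nos2 and the cytokine Il1b were close in both diets, at 90.1, 222 and 262 with CAS and 103, 216 and 214 with WPH. Of 20 antigen presentation genes, 0 rose and Ctss alone fell (5%, against 7.4% of all genes lower). Their median log2 change was 0.02, and by adjusted p alone 5 were higher and 3 lower. The class II chain RT1-Da was at 6460 with CAS and 9927 with WPH (adjusted p = 0.000327, under 2-fold), and its partners RT1-Ba and RT1-Bb were at 1395 and 1210 with CAS and 1447 and 1192 with WPH.

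Transcripts known from organs other than the colon also differed, and Defb1 and Cd52 among them had the largest decreases of all called probe sets. Of 33 genes of the male reproductive tract list on the array, 16 were bright enough to compare. Of these, 10 fell (62.5%, against 7.4% of all genes) and 0 rose. Cd52, a surface glycoprotein of lymphocytes that the epididymis also makes in quantity, was at 3174, 3687 and 3396 with CAS and 20.0, 7.0 and 8.6 with WPH, at least 34.2-fold lower (adjusted p = 2.27e-07). The β-defensin Defb1 was at 3001, 3083.5 and 3373 with CAS and 112, 48.1 and 13.6 with WPH, a floored log2 ratio of -4.92, and its second probe set was at least 22.4-fold lower. Adam7, a membrane protein of epididymal cells, was at 1773, 1667 and 1694 with CAS and 127, 91.6 and 213 with WPH, a floored log2 ratio of -3.55. Ptgds, which makes prostaglandin D2, fell at least 19.8-fold, Serpina1fl1, a serpin, at least 15.1-fold and the sulfotransferase Sult1c2a at least 10.5-fold. Svs4, a seminal vesicle secretory protein, was at 306, 277.5 and 313 with CAS and 51.0, 59.2 and 57.4 with WPH, at least 2.99-fold lower.

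The CAS arrays stood alone in most of this group. The summed signal of the 16 genes was 18430 to 19060 with CAS, 5778 to 6214 with WPH and 4872 to 5381 with SPI. Means with SPI were 11.2 for Cd52, 74.8 for Defb1, 122 for Adam7 and 43.3 for Ptgds. Svs4 was at 223 with SPI. The 6 compared members that were not called included Clu, clusterin, at 3471 with CAS and 4722 with WPH, and Svs3a at 227 and 280. Members under the minimum in both diets had means of 3.73 to 96.0 with CAS. Cst8, a cystatin of the epididymis, was at 91.9 and 88.6. Gpx5, the epididymal glutathione peroxidase, was at 4.07 with CAS and 6.93 with WPH, Svs5 at 3.73 and 11.9 and the prostatic Scgb2a1 at 4.20 and 6.83. Of the defining markers of the list, Adam7 and Svs4 were measured, and both were lower. How many of the 7 rats in the CAS pool carried these transcripts cannot be told apart in pooled RNA.

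Of 27 liver and pancreas genes on the array, 15 were bright enough to compare. Of these, 6 rose and 1 fell (40% and 6.67%, against 4.8% and 7.4% of all genes). Members under the minimum in both diets included the pancreatic Cpa1, at 30.3 with CAS and 41.9 with WPH, and Prss2, at 21.7 and 33.7. Ctrb1 was at 28.8 and 36.4, and Fgb at 41.7 and 42.7. Albumin (Alb) was at 111, 138 and 116 with CAS and 478, 403 and 368 with WPH, 3.42-fold higher, and at a mean of 46.8 with SPI. Transthyretin (Ttr) was 2.54-fold higher, Ahsg, or fetuin, had a floored log2 ratio of 1.40, and the antiprotease Serpina1 was higher too, at 412.5, 441 and 398 against 1059, 1040 and 1030. Pancreatic trypsinogen (Prss1) was at 71.7, 79.2 and 79.3 with CAS and 235, 264 and 207 with WPH, at least 2.36-fold higher, and pancreatic lipase (Pnlip) 2.18-fold. The elastase Cela1 was the member that fell, at 244, 246 and 294 with CAS and 94.4, 147 and 34.9 with WPH (floored log2 ratio -1.17). Its call was lost with wash round in the model (limma adjusted p = 0.26) and within the first wash round (log2 change -0.82). Ins1 and Ins2, the insulin genes, did not pass the test (adjusted p = 0.761 and 0.77), at 455 and 976 with CAS and 441 and 942 with WPH. Among 12 skeletal muscle genes, Pygm, muscle glycogen phosphorylase, alone was called, 2.81-fold higher (8.33%, against 4.8% of all genes higher). Myh4, the fast myosin of limb muscle, was under 100 in both diets. The part of other tissue in these values was not tested.

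**Figure D4:**
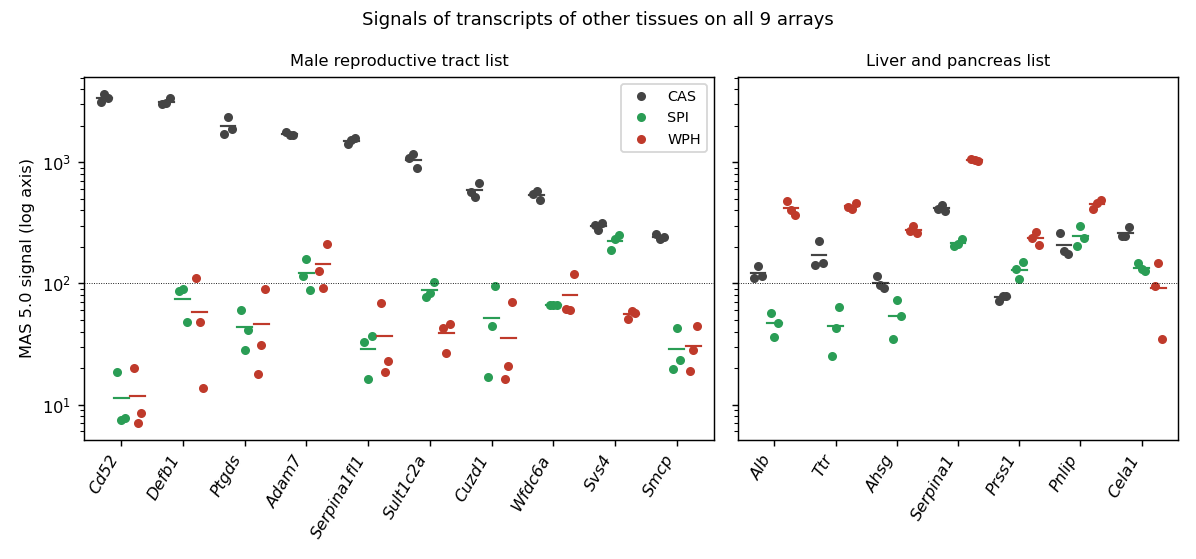
MAS 5.0 signals (log axis) of the called genes of the male reproductive tract and the liver and pancreas lists on the 3 CAS, 3 SPI and 3 WPH arrays, with bars at the means, a dotted line at 100 and signals under 5 drawn at 5. All 10 male tract transcripts are higher on every CAS array than on any SPI or WPH array, Svs4 with the smallest gap to SPI, and Alb, Ttr, Ahsg, Serpina1, Prss1 and Pnlip are highest on the WPH arrays.

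Of 36 genes of lipid uptake, oxidation and ketone synthesis, 10 fell and 1 rose (median log2 change -0.52). These shares were 27.8% and 2.78%, against 7.4% and 4.8% of all genes. The intestinal carrier Fabp2 was at 1770, 1744 and 1453.5 with CAS and 95.2, 311 and 275 with WPH, a floored log2 ratio of -2.85, and the liver-type Fabp1 fell 2.62-fold, whereas Fabp5, the epidermal form, rose 2.27-fold. Slc16a1, the carrier that takes up butyrate and lactate, was 2.97-fold lower, at 2236.5, 1871 and 2011 against 660, 742 and 660. The carnitine carrier Slc22a5 fell 3.95-fold. Enzymes of mitochondrial β-oxidation had means of 2578 and 1579 for Cpt1a, 1669 and 901 for Acadm and 775 and 495 for Acads with CAS and WPH (adjusted p = 0.000138, 9.86e-05 and 0.00125, under 2-fold), and 2711 and 2371 for Hadha (adjusted p = 0.314). Cds1, of phospholipid synthesis, fell 4.66-fold. Cholesterol synthesis genes gave 2 lower of 17, Cyp51 and the feedback regulator Insig1 at 2.07-fold and 2.01-fold, and 0 higher. The share lower was 11.8%, against 7.4% of all genes. The call of Cyp51 was lost without CAS replicate 1 (log2 change -0.9955), and that of Insig1 without CAS replicate 2 (-0.79), WPH replicate 2 (-0.94) or WPH replicate 3 (-0.90) and after quantile normalization.

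Genes that process foreign compounds and glutathione fell in 9 of 33 members of the cytochrome P450 and phase I list, and 0 rose. In the conjugation and glutathione list 13 of 35 fell and 1 rose. The shares lower were 27.3% and 37.1%, against 7.4% of all genes. Cyp3a9, an oxidase of drugs and steroids, was at 2527, 2398 and 2517 with CAS and 376, 300 and 401 with WPH, 6.91-fold lower. The fatty acid hydroxylases Cyp4f1, Cyp4f4 and Cyp4f5 were 5.78-fold, at least 4.16-fold and 3.09-fold lower, Cyp2j3 was 2.87-fold lower and Cyp4b1 2.07-fold.

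Glutathione S-transferases, which couple glutathione to foreign compounds, were among the largest decreases of their list. Gstm1 was at 6559, 7083 and 6780 with CAS and 778, 701.5 and 710 with WPH, 9.33-fold lower, and its other 2 probe sets were called as well. Gsta3 was 8.50-fold lower and Gsta4 3.84-fold, with each of their other probe sets called. Glutathione itself is made in steps by glutamate-cysteine ligase and glutathione synthetase and is kept reduced by glutathione reductase. Gclc, the catalytic subunit of the ligase, was under the minimum, at 85.3 with CAS and 56.7 with WPH. Gclm, its regulatory subunit, was at 352, 699 and 401 with CAS and 219, 161 and 131 with WPH, 2.84-fold lower, Gss was 2.01-fold lower and Gsr 2.12-fold (limma adjusted p = 0.00194, 0.000125 and 1.43e-05). One further probe set of Gclm, at 325 and 177, and one of Gsr, at 169 and 78.0, were not called, and the call of Gss was lost after quantile normalization and after median centring (log2 change -0.96 and -0.94). Gpx2, the peroxidase of the gut epithelium, was at 2029, 1807 and 1851 with CAS and 476.5, 591 and 521 with WPH, 3.58-fold lower, and at a mean of 3998 with SPI. Other peroxidases were not called, Gpx1 standing at 4222 and 4889 and Gpx4 at 2601 and 2691, and plasma Gpx3 at 1375 and 2276 (adjusted p = 0.0012, under 2-fold). Prdx6, a peroxiredoxin, fell 2.23-fold, and all 3 of its probe sets were called. Sod2, the mitochondrial superoxide dismutase, was called higher at 2.24-fold, but 1 WPH array, at 286, lay among the CAS values of 273, 308 and 257 (adjusted p = 0.0291). The call of Sod2 was lost without WPH replicate 2 or 3 and without CAS replicate 1 or 3, at log2 changes of 0.70, 0.84, 1.00 and 0.96.

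Increases were ranked over called probe sets with 1 gene symbol, a mean of at least 200 and 9 of 9 array pairs higher. Ass1, the enzyme of arginine synthesis, gave the largest of them once signals under 100 were raised to 100. In its list of 19 genes of the urea cycle, arginine and polyamines, 1 rose and 2 fell. These shares, 5.26% and 10.5%, were near the 4.8% and 7.4% of all genes. Ass1 was at 347, 300 and 344.5 with CAS and 1481, 1719 and 1454 with WPH, 4.69-fold higher, where 1719 is the WPH array of the first wash round. Arg2, the mitochondrial arginase that degrades arginine, was at 616, 619 and 613 with CAS and 14.9, 22.6 and 40.5 with WPH, at least 6.16-fold lower (adjusted p = 5.52e-07). Ckmt1, mitochondrial creatine kinase of epithelium, fell 2.71-fold, while the cytosolic Ckb was at 8998 with CAS and 16418 with WPH (adjusted p = 1.65e-05, under 2-fold). Asl, the next enzyme after Ass1, was at 261 and 378 (adjusted p = 0.0156) and Odc1, the first enzyme of polyamine synthesis, at 1195 and 797 (adjusted p = 0.00186), both under 2-fold.

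Of 23 genes of glycolysis and glucose handling, 2 rose and 3 fell (8.7% and 13.0%, against 4.8% and 7.4% of all genes). Hexokinase 2 (Hk2) was 2.70-fold lower, at 2505, 2399 and 2678 against 892, 922 and 998, and the transporter Slc2a1 2.07-fold, while hexokinase 1 (Hk1) was at 1126 and 1780 (adjusted p = 0.000104, under 2-fold). Pfkm, the muscle phosphofructokinase, and Ldhb, the lactate dehydrogenase subunit of oxidative tissue, rose 2.64-fold and 2.21-fold, but a second probe set of Pfkm was level at 192 and 177. Shared enzymes of the pathway, Aldoa, Eno1 and Pkm, did not pass the test, with Eno1 at 9666 and 9985.

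None of 31 respiratory chain genes was called, and their median log2 change was 0.15. Of 37 cytosolic ribosomal protein genes, none reached 2-fold, but 35 had a log2 change above 0, 28 of them with an adjusted p under 0.05, and the median was 0.49. Rps29 was at 21052 with CAS and 36788 with WPH and Rpl31 at 10895 and 19131. This shift of a bright family had a median of 0.23 after quantile normalization and was 0.56 within the first wash round. β-Actin (Actb) was at 19432, 21005 and 19521 with CAS and 34032, 34322 and 34111 with WPH, a ratio of 1.71 (log2 change 0.77), and its log2 change turned slightly below 0 after quantile normalization.

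In the cell cycle list and in the growth factor and receptor list 7.14% and 5.41% of members fell, near the 7.4% of all genes. Of 28 cell cycle genes, Id1, an inhibitor of differentiation factors, and Top2a, the topoisomerase of dividing cells, fell 4.10-fold and 2.48-fold, and 0 rose. Id1 was at 4072, 2941 and 3800.5 with CAS and 697, 874 and 1067 with WPH. Cyclin D1 (Ccnd1), which drives entry into division, was at 1831, 2282 and 1982 with CAS and 1311.5, 1144 and 1036.5 with WPH, 1.75-fold lower without overlap (adjusted p = 0.000456), and a second probe set was 1.97-fold lower (limma adjusted p = 0.00113), both under the fold limit. Other genes of dividing cells were not called, Mcm6, of DNA replication, at 800 and 436 (adjusted p = 0.000231), Stmn1 at 979 and 603 (adjusted p = 0.00121), Pttg1 at 532 and 320 and Plk1 at 453 and 330, while Pcna was at 1551 and 1335 (adjusted p = 0.244) and Cdk4 at 988 and 1085. Among 37 growth factor and receptor genes, Erbb2 and Prlr, the prolactin receptor, fell 2.61-fold and by a floored log2 ratio of -1.67, and 0 rose. Prlr rested on 1 of its 3 probe sets, the other means being 152 and 143, and 111 and 134. Areg, an epidermal growth factor receptor ligand, was at 159 with CAS and 28.7 with WPH (adjusted p = 0.000611), too dim for the fold rule.

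Of 26 immediate early genes, 5 fell and 0 rose, against 7.4% of all genes lower. Junb was at 1058, 914 and 1191 with CAS and 440, 413 and 467 with WPH, 2.40-fold lower, and Atf3 2.35-fold. The remaining genes that fell, Klf4, Sgk1 and Ccn1, stand in other lists above. Fos, Jun and Egr1 were at 1068, 1467 and 3325 with CAS and 707, 1106 and 2513 with WPH, each with an adjusted p under 0.05 and under 2-fold. Klf9, of the same list, was at 1410 and 2592 on its brighter probe set (adjusted p = 0.000203, under 2-fold). Of 28 heat shock and chaperone genes, 3 rose (10.7%, against 4.8% of all genes) and 0 fell, and by adjusted p alone 11 were higher and 6 lower. Hspb6, the small heat shock protein of smooth muscle, rose 2.18-fold, Hspa4 2.28-fold and the collagen chaperone Serpinh1 as above. P4hb, a disulfide isomerase of the secretory pathway, was at 5711 with CAS and 3326 with WPH (adjusted p = 9.27e-05, under 2-fold).

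Reg3g and Rbp4, which are in no list, also differed. Reg3g, an antibacterial lectin of the gut epithelium, was at 1448, 1441 and 1232 with CAS and 738, 689.5 and 779 with WPH (adjusted p = 1.37e-05, under 2-fold), and at a mean of 21085 with SPI. Rbp4, the carrier of retinol in blood, was at 453, 549 and 470 with CAS and 1244, 930 and 1022 with WPH, 2.17-fold higher. The call of Rbp4 was lost within the first wash round (log2 change 0.93) and without WPH replicate 1 (log2 change 0.99), and its dimmer probe set was not called.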

How the data were processed

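Affymetrix rat genome arrays were hybridized with cRNA from pooled proximal colon RNA. The deposited values were signals that the authors computed with Affymetrix MAS 5.0 on a linear scale and scaled to an average of 500 per array, with no detection calls. Depth is not defined for arrays, and 3 per diet limit the precision. Samples were grouped by their titles. Signals under 0.1 (4 values) were set to 0.1 and changed to log2, with no further normalization. limma (version 3.58.1, under R version 4.3.3) was run on all 9 arrays, with its variance prior following mean signal, and WPH minus CAS was tested. The steps were tested on simulated data. Of the probe sets, 7018 had 1 symbol in the annotation of the platform, 308 had more than 1, and 1473 were unnamed here. The members and the 30 gene lists were chosen with earlier results of these data known. No list was tested. Any list member could be named, up to 4 called members with the largest floored fold, a mean of at least 200 and 9 of 9 array pairs in 1 direction came first, and the 10 largest increases and decreases by the same limits, genes with primers in the study and the 2 housekeeping controls were added. Python 3.11.15 with numpy 2.4.6, pandas 2.3.3 and matplotlib 3.10.9 did the rest.

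Replicate numbers did not pair the arrays, as deviations of same-numbered CAS and WPH arrays correlated at -0.22, -0.15 and -0.07. Alternatives were another floor, offset, filter, normalization, variance model or fold, the methods' t-test, the brightest probe set of each gene, a block for replicate number, a block for wash round, the first wash round alone, and each array left out.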

Additional observations from a re-analysis of the deposited data

How the results depend on the processing

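The counts were 236 for probe sets higher with WPH than with CAS and 396 for probe sets lower with WPH than with CAS. A fold minimum of 1.5 gave 739 and 729, and a fold minimum of 3 gave 29 and 172. The methods' t-test together with 9 of 9 array pairs at 2-fold gave 106 higher and 292 lower. With 1 probe set per gene, which tests fewer features, 161 and 248 were called. Without 1 array at a time the counts ran from 236 to 275 higher and from 392 to 407 lower. With replicate number as a block, although the numbers did not pair the arrays, 236 and 395 were called, and of the main calls 236 and 395 were kept. With wash round as a block 231 and 374 were called, of which 229 and 374 were among the main calls. The log2 changes of WPH against CAS with this block are those of the first wash round alone (Pparg -0.72 in both). Both rest on WPH replicate 2 and are not separate checks. The remaining alternatives gave counts within 1.5 times the main ones, such as 228 and 382 after quantile normalization and 262 and 370 after median centring. For β-actin the Actb V01217_at log2 change turned from 0.77 to -0.003221 after quantile normalization, and the cause was not tested.

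Of 95 called probe sets picked by the naming rule, 40 fell short of a 3-fold minimum and 18 failed the t-test with 9 of 9 pairs. Another 6 failed the methods' t-test after Benjamini-Hochberg adjustment (Pln, Fabp4, Egfl7, Insig1, Klf4 and the dimmer probe set of Pyy). Quantile normalization lost 4 (Myh11, Sparcl1, Pparg, Insig1). Among other called list members it left Actg2 (log2 change 0.22), Myl9 (0.29), Cnn1 (0.36), Des (0.42), Cd14, Mcpt1 and Gss under 2-fold. Within the first wash round, with 1 WPH array, Pparg (-0.72), Hspa4 (0.98) and Rbp4 (0.93) came under 2-fold. So did Ina (0.89), Gap43 (0.89), Map2 (0.995), Slc18a3 (0.98), Des (0.99), Atp1b1 (-0.81), Vcam1 (0.89), Mcpt1 (-0.98), Gss (-0.98) and Cela1 (-0.82). Precision is that of 3 arrays per pool, signals near 100 have only bounds, and variation between rats was not measured.

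Calls of list members close to 2-fold were lost without 1 array. Without WPH replicate 1 these were Atp1b1 (log2 change -0.86), Pln (0.99), Gap43 (0.97), Map2 (0.95), Lum (0.98), Vim (0.98), Vcam1 (0.90), Cd14 (-0.997), Mcpt1 (-0.96), Adh1c (-0.88) and Gss (-0.97). Without WPH replicate 2 they were Actg2 (0.95), Myl9 (0.95), Cnn1 (0.99), Cd14 (-0.91), Cyp4b1 (-0.91), Adh1c (-1.04) and Slc2a1 (-0.99), and without WPH replicate 3 Actg2 (0.98), Sv2a (1.01), Slc18a3 (0.98) and Slc2a1 (-0.92). Without CAS replicate 1 they were Hnf4a (-2.12, its bound under 2-fold), Des (1.00), Mcpt1 (-0.99), Adh1c (-1.05) and Gss (-0.93), without CAS replicate 2 Actg2 (0.93), Myl9 (0.94), Nmu (0.95), Vcam1 (0.97), Mcpt1 (-0.99) and Slc2a1 (-0.85), and without CAS replicate 3 Atp1b1 (-0.96), Des (0.99), Sv2a (0.89), Map2 (0.97), Cyp4b1 (-0.83) and Gss (-0.88). Those of Pparg, Cyp51, Insig1 and Sod2 stand with their values in the report.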

Other observations

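Genes in this section were chosen after their values were seen and belong to no list above. Enzymes that make serine and turn methionine into cysteine were lower with WPH. Phgdh, the first enzyme of serine synthesis, was at 1115, 788 and 1056 with CAS and 274, 346 and 348 with WPH on its brighter probe set (limma log2 change -1.61, adjusted p = 1.04e-05), and a second probe set was 1.98-fold lower. Psat1, the second enzyme, fell from 1412, 1355 and 1208 to 281, 250 and 268 (log2 change -2.31, adjusted p = 8.65e-07). Mat2a, which makes S-adenosylmethionine, had means of 672 and 231, Cbs, which makes cystathionine, 616 and 226, and Cth, which cleaves it to cysteine, 473 and 166, each called lower.

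Some further transcripts of peripheral nerve were higher with WPH, and genes known from neurons were also found lower. Nrgn, Homer2 and Ddc were called lower, with means of 262, 422 and 219 with CAS and 47.0, 123 and 44.3 with WPH. For Ddc a CAS array at 54.5 lay within the WPH range. Calcb, encoding a calcitonin gene-related peptide, was at 191, 110 and 205 with CAS and 539, 667 and 589 with WPH (log2 change 1.87, limma adjusted p = 3.28e-05). Phox2a, a transcription factor of autonomic neurons, had means of 113 and 374, the nicotinic receptor subunit Chrna3 284 and 666, the serotonin receptor Htr3a 493 and 1002 and the sodium channel Scn11a 147 and 344, all called higher. Crabp1, which binds retinoic acid, was at 199 and 745. Gucy1a1 and Gucy1b1, the subunits of the nitric oxide receptor of smooth muscle, were at 602.5 and 783 with CAS and 1453 and 1643 with WPH.

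Epithelial transcripts in no list fell as well. Ms4a8 was at 6233 with CAS and 853 with WPH, the chloride channel regulator Clca4 at 6179 and 997, Foxa3, a factor of goblet and endocrine cells, at 535 and 76.9, and Nlrp6, an innate sensor of the epithelium, at 790 and 239. Ly6l, also in no list and not assigned to a cell type here, fell from 1110 to 71.4 (limma adjusted p = 7.92e-06) and was at a mean of 204 with SPI.

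Promoter windows of RefSeq (GRCr8, 250 bases before to 50 after each start) were matched for 16 of the 20 smooth muscle genes. No exact CArG box, the binding sequence of serum response factor, was in these windows on either strand, and 1.64% of 27457 windows held one. The absence of these letters from the windows says nothing of the factor.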
